A study of Mus musculus with 88 samples.

Results

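The comparison described here asked how the transcript difference between injured and uninjured cortex changed from 24 h to 72 h after a controlled cortical impact. In each mouse the ipsilateral (injured) library was compared with the contralateral library of the same brain, and this side difference was then compared between 13 animals taken at 72 h and 15 animals taken at 24 h. These 28 animals gave 56 of the 88 libraries of the series, which holds 44 animals in all. The time change of a gene is its log2 side difference at 72 h minus that at 24 h, so a positive value means that the ipsilateral side gained relative to the contralateral side. Every difference in level that both punches of an animal share, such as that between library batches, drops out of it. A side difference that itself varies between batches does not drop out.

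Controlled cortical impact drives a piston into exposed cortex and gives a focal contusion. Male and female C57BL/6 mice of 8 to 9 weeks had the skull opened by 3 mm above somatosensory cortex of the right hemisphere and received an impact with a 2 mm tip at 6.0 m/s and 1 mm depth, under isoflurane and with buprenorphine at 0.05 mg/kg. They were perfused at 24 or 72 h, and 4 mm punches centred on the injury and on the opposite cortex gave polyadenylated RNA for sequencing. The 24 h group held 7 females and 8 males and the 72 h group 7 females and 6 males. A naive group of 13 animals, whose right punch is labelled ipsilateral, had no surgery, impact or analgesic. No sham group is analysed here, so the impact cannot be told apart from the opened skull, the anaesthesia or the analgesic. The labels give a separate animal for every pair of libraries and name no pooling.

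Of the 16 animals labelled 72 h, 3 were set aside. Both libraries of LF3 stood apart from their groups, with correlations of 0.871 and 0.869 to the group's median profile, against at least 0.978 in the 56 libraries used, and with 7.80% and 10.5% mitochondrial counts, against 2.80 to 5.45%. The ipsilateral library labelled PF1, a female, carried male transcripts (Ddx3y at 60.2 CPM, Xist at 0.11 CPM), and the ipsilateral library labelled PM1, whose labels contradict each other on sex, carried female ones (Xist at 489 CPM, Ddx3y at 0). The side pairing of these 2 animals is therefore in doubt. For each list below, the count of called genes with these 3 animals added, or within 1 batch, is given where it differs by over 1.5 times. CPM is counts scaled to a common library total of 1e6, and the 56 libraries had total counts, in units of 1e6, of 14.8 to 26.4 (median 16.1). All 56 expressed the defining transcripts of neurons (Slc17a7, 940 to 1849 CPM), astrocytes (Aqp4, 33.4 to 416 CPM), oligodendrocytes (Mbp, 384 to 3122 CPM), microglia (Cx3cr1, 46.3 to 228 CPM) and endothelium (Cdh5, 13.9 to 117 CPM). No pair of libraries of a group agreed within counting noise. Levels of single genes below are CPM on library sizes rescaled by edgeR (TMM), and side differences per animal use log2 CPM with a prior count of 2. The contralateral library of LM2, a male at 72 h that was kept, had the lowest correlation of the 56 (0.978). Before rescaling by TMM, the contralateral library of QF1, a female at 24 h that was kept, held Gfap at 874 CPM. The other contralateral libraries at 24 h held 80.5 to 268 CPM. The ipsilateral library of QF1 held Aqp4 at 33.4 CPM, and the other ipsilateral libraries at 24 h at least 82.6 CPM.

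In a contusion, damaged axons and vessels release signals that draw in neutrophils within hours and monocytes over the following days. Resident microglia retract, lose their surveillance markers, proliferate and take up debris through the lysosome, and astrocytes upregulate intermediate filaments and build a border around the lesion. Oligodendrocyte precursors and vascular cells divide and move into the damaged zone, while synaptic transcripts are lost with injured neurons and activity-dependent genes respond to the first discharges.

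The side difference changed between the 2 times for 9012 of 18033 genes tested (50%), by edgeR's quasi-likelihood test with Benjamini-Hochberg adjustment (adjusted p under 0.05, the threshold for every call below). Of these, 4746 (26.3% of the genes tested) moved towards the injured side and 4266 (23.7%) away from it, and 1362 and 262 moved by more than 2-fold. The median time change of all genes was 0.00. Genes that stood higher on the injured side and more so at 72 h were the largest class, with 3380 genes (18.7%), and genes that stood lower and more so at 72 h followed with 2954 (16.4%). A side difference that was larger at 24 h was seen in 849 genes on the high side (4.71%) and in 751 on the low side (4.16%). Another 981 genes (5.44%) were called at both times with opposite signs, 565 of them low at 24 h and high at 72 h and 416 high and then low, and 97 fell in no class. On the injured side 5368 genes were higher (29.8%) and 5410 lower (30%) at 24 h, 59.8% in all. At 72 h 6532 were higher (36.2%) and 6349 lower (35.2%), 71.4% in all. In naive mice the side difference was called for 0 of 16777 genes (edgeR's quasi-likelihood test), with 286 at an unadjusted p under 0.05.

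The per-animal side differences of the 2 times did not overlap for 931 genes (5.16%), 725 of them higher at 72 h (4.02%) and 206 lower (1.14%). These shares, and the 26.3% called higher and 23.7% called lower, are the background for the list counts below. The labels' batch letters are unevenly spread: the 24 h animals are 7 of batch A and 8 of batch B, and the 72 h animals are 3 of batch B and 10 of batch C. Outside batch B, a change of the side difference with time cannot be told apart from one with batch. With terms that let the side difference vary by batch (batch-by-side terms) 4690 genes were called, 4477 of them among the 9012 with the same sign. In that fit the time contrast rests on the batch B animals, because batches A and C each hold a single time. It is therefore not a check apart from the fit of batch B alone. Within batch B alone 3820 genes were called, and 8912 of the 9003 called genes that could be tested there kept their sign, 3737 of them being called again. With LF3, PF1 and PM1 added, 7647 genes were called, 7445 of them among the 9012 with the same sign. Scaling by library size alone, which raised the median change of all genes to 0.07, moved the share of called genes that were higher at 72 h from 52.7% to 63.8%.

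**Figure D1:**
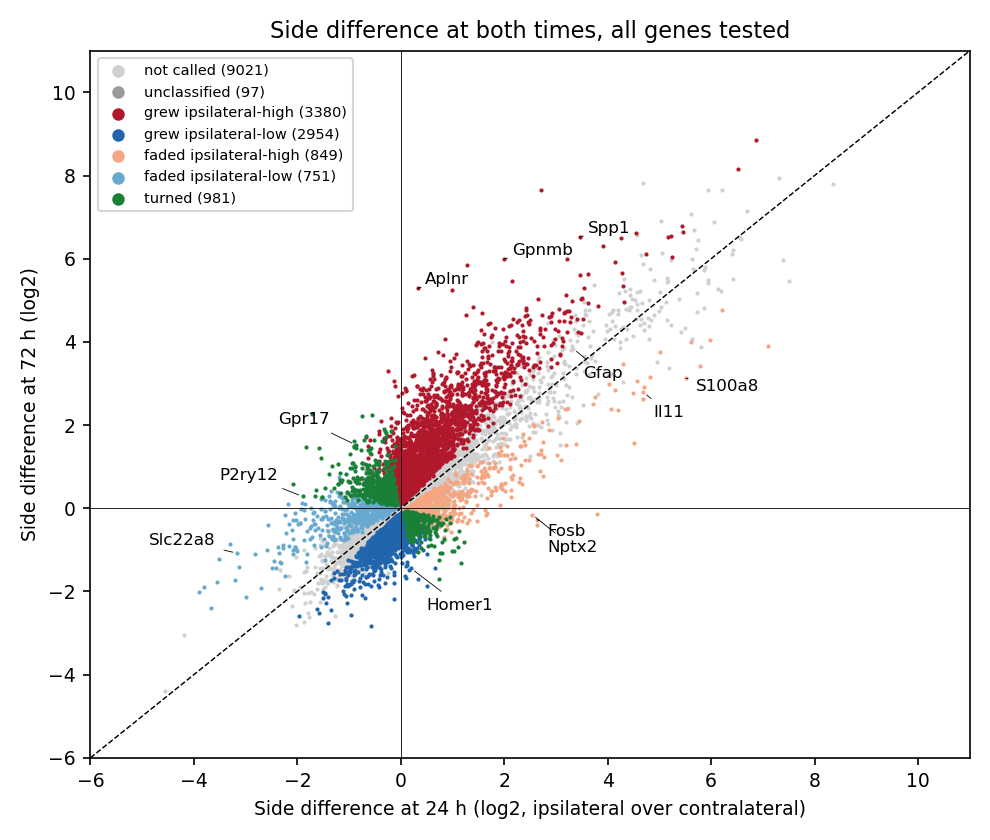
Each point is 1 of 18033 genes, with the log2 side difference (ipsilateral over contralateral) at 24 h on the horizontal axis and at 72 h on the vertical axis, and colours mark the classes of change. Points above the dashed line moved towards the injured side by 72 h, such as Aplnr (0.32 to 5.29), and points below it moved away, such as Fosb (2.63 to -0.27).

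Of 12 genes of surveying microglia 8 were called lower and 4 higher on the injured side at 24 h, and at 72 h 11 were called higher and none lower. All 12 had a called time change towards the injured side (26.3% of all genes were), with no overlap between the per-animal values of the 2 times for any of the 12 (4.02% of all genes), and 7 of them turned from low to high. Their median side difference went from -0.37 to 1.13, and the median time change was 1.59 against 0.00 over all genes. P2ry12, the purinergic receptor that steers microglial processes, had side differences of -2.85 to -1.38 at 24 h (median -1.82, 15 animals) and of -0.05 to 0.79 at 72 h (median 0.26, 13 animals). Every 24 h animal was below every 72 h animal. Its median level on the injured side was 8.62 CPM at 24 h and 48.1 CPM at 72 h, against 33.6 and 41.1 CPM on the other side. The change was 2.18 ± 0.12 log2 units (± is the standard error of the fit, adjusted p = 7.47e-16, edgeR).

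Csf1r, the receptor for the growth factors that microglia and macrophages need, went from -0.57 to 0.12 at 24 h (median -0.12) to 1.17 to 1.77 at 72 h (median 1.50), again without overlap. Siglech, a sialic acid receptor of microglia, stood at -2.24 ± 0.16 at 24 h and at -0.17 at 72 h. In this bulk RNA, fewer cells of a type and less RNA per cell cannot be told apart. Batch B alone gave 12 of 12 called, with a median change of 1.70, and the fit with the 3 set-aside animals gave 12 of 12.

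Genes of activated, lipid-handling microglia and macrophages grew on the injured side. Of 14 such genes 12 were called higher and none lower, with a median side difference of 1.64 at 24 h and 2.60 at 72 h. Gpnmb, a glycoprotein of phagocytes that carry much lysosomal cargo, stood at -0.60 to 3.21 at 24 h (median 1.94) and at 3.80 to 7.20 at 72 h (median 5.93). The groups did not overlap, and the median injured-side level was 8.00 CPM at 24 h and 173 CPM at 72 h. The change of 4.00 ± 0.35 log2 units (adjusted p = 5.94e-11) put it among the 6 genes with the largest growth. Spp1, the secreted matrix protein osteopontin, went from 2.57 to 4.20 at 24 h (median 3.42) to 5.17 to 7.64 at 72 h (median 6.40). Its median injured-side level was 104 CPM at 24 h and 977 CPM at 72 h, and no 24 h animal reached the lowest 72 h animal. Trem2, the lipid-sensing receptor of microglia, went from 0.18 ± 0.07 to 2.24 ± 0.07, while the lectin receptor Clec7a (4.84 and 4.53) and the integrin Itgax (3.30 and 3.81) were not called.

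The lysosome list moved as one: 13 of 13 were called higher at 72 h (26.3% of all genes were). None of the 13 overlapped between the times, against 4.02% of all genes without overlap and higher at 72 h. The median side difference went from 0.49 to 2.04. Ctsd, the aspartic protease cathepsin D, had side differences of 0.16 to 0.76 at 24 h (median 0.53) and of 2.06 to 3.40 at 72 h (median 2.89). Its median level on the injured side was 249 CPM at 24 h and 1713 CPM at 72 h, against 172 and 238 CPM contralaterally. Grn, the lysosomal chaperone progranulin, changed by 2.12 ± 0.09 (adjusted p = 4.34e-18) and Gusb, beta-glucuronidase, by 2.07 ± 0.09. The 3 subunits of the complement starter C1q grew in step, with C1qa at 0.83 ± 0.08 at 24 h and 2.80 ± 0.09 at 72 h. C1qb changed by 1.80 and C1qc by 1.96 log2 units. Of 11 complement genes 7 were called higher and none lower, and C3, the central component, was high at both times (5.04 and 4.83) and not called. Batch B alone gave 13 of 13 lysosome genes and 6 of 11 complement genes.

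**Figure D2:**
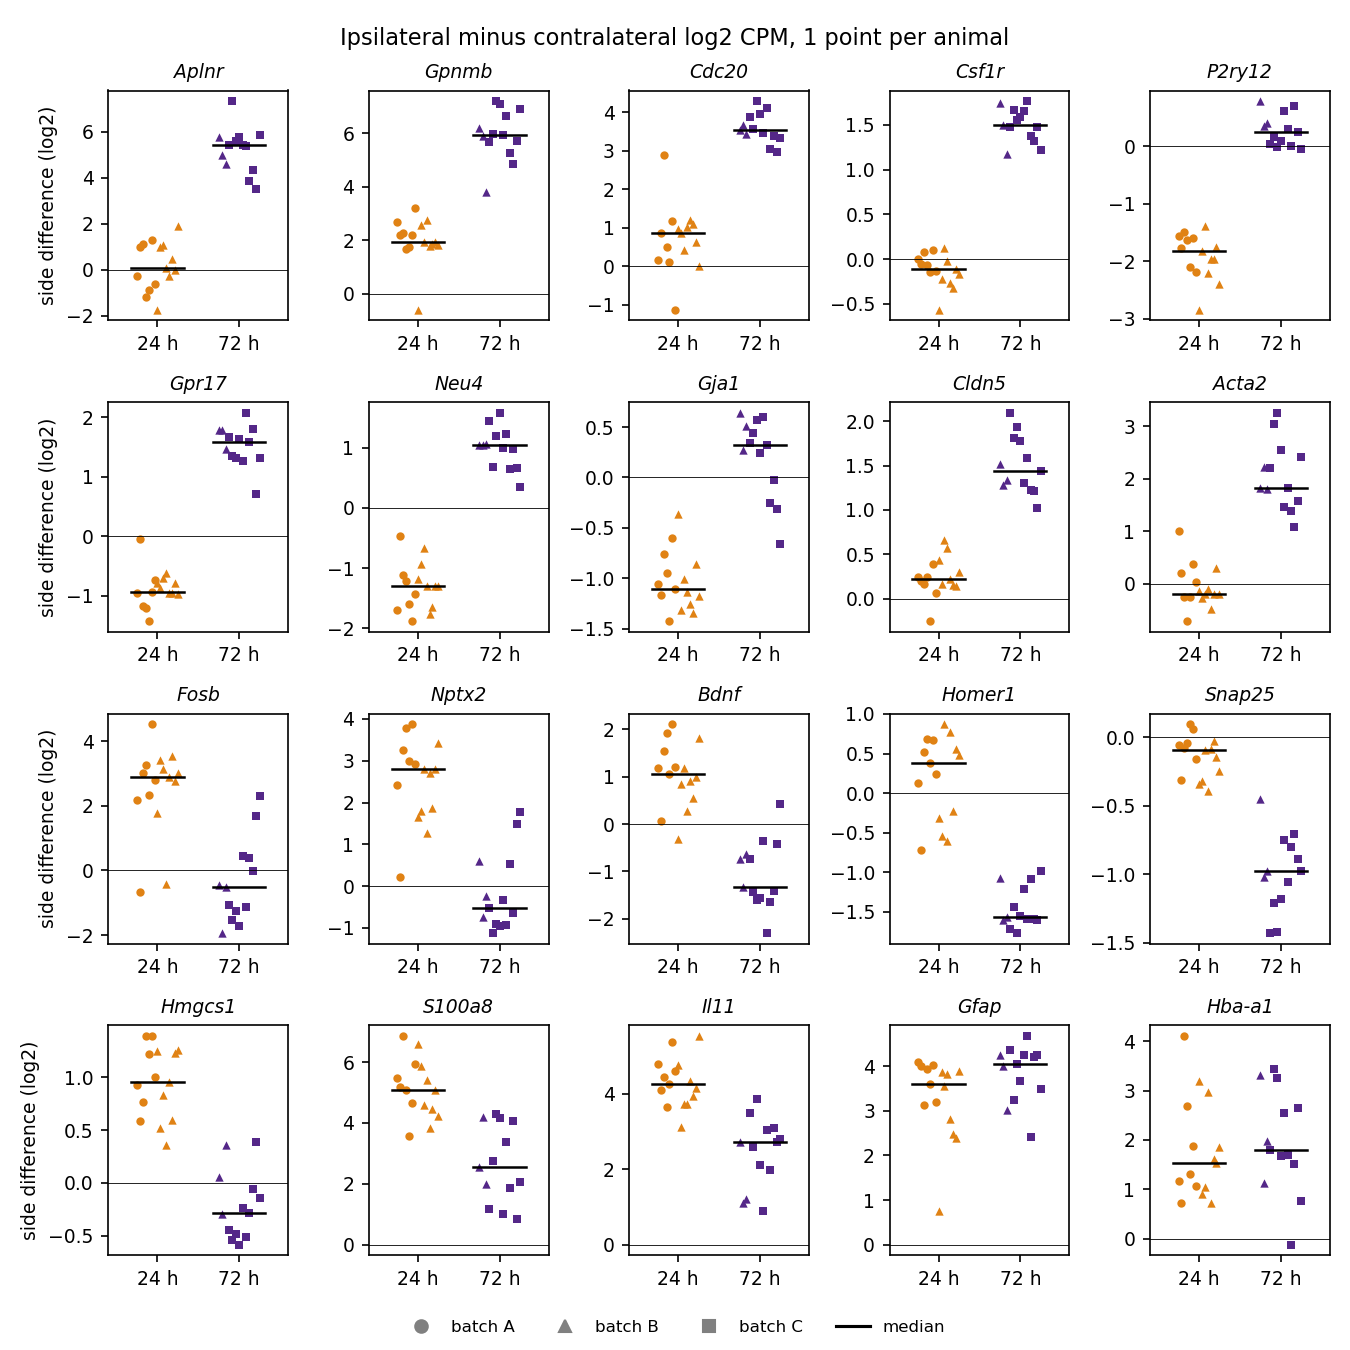
Each panel shows 1 gene, with the per-animal side difference in log2 CPM on the vertical axis, the 15 animals at 24 h and 13 at 72 h as points shaped by batch letter, and the median as a bar. P2ry12, Csf1r, Gpnmb and Cdc20 show groups that do not overlap, while Gfap (medians 3.60 and 4.05) and Hba-a1 (medians 1.53 and 1.79) overlap widely.

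Cholesterol handling split into 2 opposite changes. All 10 tested genes of efflux and lipid droplets were called higher at 72 h, from a median side difference of 0.45 to 1.34, and all 16 genes of cholesterol synthesis were called lower, from 0.79 to -0.03. Abca1, the transporter that passes cholesterol to apolipoproteins, stood at 0.18 to 0.87 at 24 h (median 0.55) and at 1.58 to 2.97 at 72 h (median 2.52), without overlap. Plin2, which coats lipid droplets, went from 2.73 to 4.66, and Pltp, a phospholipid transfer protein, turned from -1.52 ± 0.08 to 0.28 ± 0.08. On the synthesis side, Hmgcs1, which makes the precursor HMG-CoA, stood at 0.36 to 1.39 at 24 h (median 0.96) and at -0.59 to 0.38 at 72 h (median -0.28). The ranges overlapped at their ends. Its median injured-side level was 318 CPM at 24 h, against 166 CPM contralaterally, and 159 CPM at 72 h, against 186 CPM. The change was -1.17 ± 0.12 (adjusted p = 6.56e-10).

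Fdft1, squalene synthase, turned from 0.88 ± 0.08 to -0.25 ± 0.09. Of the 16 synthesis genes 16 were called higher on the injured side at 24 h, and at 72 h 1 was called higher and 6 lower. Within batch B alone 10 of the 16 were called lower and none higher (median change -0.69), and with the 3 set-aside animals all 16 were called. The sterol pathway is controlled by transcription factors that bind the motif TCACNCCAC, so the windows from 250 bases before to 50 bases after the annotated starts were searched for it on both strands. Of the 10 synthesis genes with a window in the RefSeq table (GRCm38.p6), 1 held a match, Hmgcs1, against 1.44% of 27025 genes with a window and 1.42% of the 12534 of them tested here. The Hmgcs1 window (chr13:119690101-119690400, plus strand) is shown 5′ to 3′ because this gene changed most among the 16, with the match in capitals.

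Hmgcs1: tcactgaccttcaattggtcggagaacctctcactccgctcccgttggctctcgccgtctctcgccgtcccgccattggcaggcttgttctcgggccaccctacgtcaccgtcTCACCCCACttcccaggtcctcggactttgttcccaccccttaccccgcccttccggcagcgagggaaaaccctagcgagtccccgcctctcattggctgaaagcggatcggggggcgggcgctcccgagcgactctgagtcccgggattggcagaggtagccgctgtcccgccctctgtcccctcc

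Genes of cell division had the largest median change of the 44 lists (2.11). Of 18 cell cycle genes 15 were called higher at 72 h (26.3% of all genes were) and none lower. The median side difference went from 1.40 to 3.66, and 7 genes had no overlap between the times (4.02% of all genes, higher at 72 h). Cdc20, an activator of the ubiquitin ligase that starts anaphase, stood at -1.13 to 2.88 at 24 h (median 0.87) and at 2.97 to 4.30 at 72 h (median 3.55). The highest 24 h animal lay just under the lowest 72 h animal. Its injured-side median was 1.73 CPM at 24 h and 23.2 CPM at 72 h, and the change was 2.86 ± 0.25 (adjusted p = 3.71e-11). Plk1, a mitotic kinase, went from -0.21 to 1.46 at 24 h (median 0.64) to 2.56 to 3.84 at 72 h (median 3.12), and Ccna2, a cyclin of S phase and G2, changed by 2.42 ± 0.17. Neither overlapped between the times.

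All 18 cell cycle genes were already called higher on the injured side at 24 h. Top2a, a topoisomerase of dividing cells, was at 4.03 at 24 h and 4.67 at 72 h and the kinase Bub1 at 3.56 and 4.77. Ube2c, which feeds the same ligase as Cdc20, was at 3.39 and 4.50, and the time change of these 3 was not called. Ccnb1, a mitotic cyclin, had the largest change of the list (2.15 to 5.46), and Hmmr, a spindle-associated protein outside the list, went from -0.25 ± 0.26 to 3.31 ± 0.23. On the contralateral side the list's median level was higher at 72 h than at 24 h by 0.75 log2 units over all animals and by 0.57 within batch B (8 and 3 animals). In batch B alone 13 of the 18 were called higher (median change 2.12). Promoters of genes that act late in the cell cycle often pair a CCAAT box with the element TTTGAA, so both were searched for in the same windows and on both strands. Of 16 cell cycle genes with a window 15 held CCAAT, against 41.1% of all genes with a window and 42.2% of those tested here. TTTGAA was held by 9, against 20.2% and 14.5%. The windows of Cdc20 (chr4:118437294-118437593, minus strand) and Plk1 (chr7:122159185-122159484, plus strand) are shown because both genes grew without overlap. Capitals mark both motifs.

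Cdc20: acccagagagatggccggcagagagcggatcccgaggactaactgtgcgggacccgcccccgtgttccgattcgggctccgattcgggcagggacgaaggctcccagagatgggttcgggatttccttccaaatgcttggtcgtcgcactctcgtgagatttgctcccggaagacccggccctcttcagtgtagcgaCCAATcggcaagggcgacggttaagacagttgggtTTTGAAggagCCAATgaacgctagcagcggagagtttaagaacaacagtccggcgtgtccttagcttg
Plk1: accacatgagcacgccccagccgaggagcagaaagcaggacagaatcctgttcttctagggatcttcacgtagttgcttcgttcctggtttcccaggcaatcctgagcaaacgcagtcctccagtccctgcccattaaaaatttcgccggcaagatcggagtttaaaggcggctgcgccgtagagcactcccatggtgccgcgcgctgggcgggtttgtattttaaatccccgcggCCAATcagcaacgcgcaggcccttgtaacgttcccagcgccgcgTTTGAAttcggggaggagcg

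Of 12 oligodendrocyte precursor genes 5 were called higher and 5 lower on the injured side at 24 h, and all 12 were called higher there at 72 h. All 12 also passed the test of the time change, towards the injured side (26.3% of all genes did). Of the 12, 5 turned from low to high and 7 did not overlap (4.02% of all genes, higher at 72 h). The median side difference went from 0.01 to 1.24. Gpr17, a receptor of precursors that are about to differentiate, stood at -1.43 to -0.04 at 24 h (median -0.93) and at 0.72 to 2.08 at 72 h (median 1.59). Every 24 h animal was below zero and every 72 h animal above it. Its injured-side median was 23.1 CPM at 24 h and 142 CPM at 72 h, with 43.1 and 45.8 CPM contralaterally (change 2.40 ± 0.12, adjusted p = 5.90e-17). Neu4, a sialidase of the same lineage, turned from -1.33 to 1.01, and the transcription factor Olig1 went from 0.05 to 1.56. Genes of mature myelin moved less: 4 of 12 were called higher (26.3% of all genes were) and none lower. Mbp (0.47 and 0.57), which encodes myelin basic protein, was not called. Within batch B 10 of the 12 precursor genes were called higher.

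Astrocyte genes divided. Of 12 genes of resting astrocytes 2 were called higher and 9 lower on the injured side at 24 h, and 5 higher and 5 lower at 72 h. The time change was called higher for 11 and lower for 1, the glutamate transporter Slc1a2 (change -0.36). In batch B alone it was called higher for 10 and lower for none. The median side difference of the 12 went from -0.56 to -0.08. Gja1, which forms astrocyte gap junctions, stood at -1.43 to -0.36 at 24 h (median -1.10) and at -0.66 to 0.64 at 72 h (median 0.32). All 24 h animals were below zero, and 9 of 13 at 72 h were above it. Aqp4, the water channel of astrocyte endfeet, went from medians of 0.34 (-1.36 to 0.77) to 1.42 (0.93 to 2.65) without overlap, a change of 1.23 ± 0.17 (adjusted p = 2.51e-07). The lowest Aqp4 value at 24 h was that of QF1. Kcnj10, a potassium channel, turned from -0.21 to 0.95.

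The reactive astrocyte list was high at both times, with all 16 genes called higher on the injured side at 24 h and at 72 h, and 6 were called higher at 72 h and 2 lower (26.3% and 23.7% of all genes were). Batch B alone gave 3 higher and none lower. Gfap, the astrocyte filament protein, was not called (0.51 ± 0.27, adjusted p = 0.124): its side differences were 0.77 to 4.09 at 24 h (median 3.60) and 2.42 to 4.68 at 72 h (median 4.05), and the groups overlapped. The lowest 24 h value was that of QF1. Gfap was called without TF2 (0.62, adjusted p = 0.0483) and with no filter on low counts (0.50, adjusted p = 0.00886). Vim, a filament protein that astrocytes share with phagocytes and vascular cells, went from 0.45 to 2.95 at 24 h (median 2.58) to 3.90 to 5.34 at 72 h (median 4.75), without overlap. The filament gene Nes changed by 1.10 ± 0.14, whereas Steap4, a metalloreductase, went from 4.69 to 2.92 and the small heat shock protein gene Hspb1 from 2.36 to 1.78.

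Of 15 endothelial and barrier genes 8 were called higher and 6 lower on the injured side at 24 h, and 13 higher and none lower at 72 h. The time change was called higher for 14 and lower for none, 5 of them turned from low to high, and the median went from 0.14 to 0.69. Cldn5, the main claudin of the blood-brain barrier, stood at -0.26 to 0.66 at 24 h (median 0.22) and at 1.02 to 2.10 at 72 h (median 1.44). No 24 h animal reached the 72 h group, and the change was 1.25 ± 0.10 (adjusted p = 3.14e-12), from an injured-side median of 41.5 CPM to one of 122 CPM. Occludin (Ocln), another junction protein, turned from -0.65 to 0.58, the efflux pump gene Abcb1a from -1.04 to 0.39 and the angiopoietin receptor gene Tek from -0.56 to 0.81. Flt1, a receptor for vascular endothelial growth factor, was the 1 gene not called (0.14 and 0.03). In batch B alone 10 of 15 were called higher.

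Among called genes whose mean level reached 1 log2 CPM, Aplnr, the receptor for the angiogenic peptide apelin, grew most. Its side difference was -1.74 to 1.92 at 24 h (median 0.08, injured side higher in 8 of 15 animals) and 3.50 to 7.35 at 72 h (median 5.43, higher in 13 of 13). The injured-side median was 0.56 CPM at 24 h and 28.1 CPM at 72 h, and the contralateral one 0.52 and 0.75 CPM. The change was 4.96 ± 0.41 (adjusted p = 1.28e-11), and 4.98 in batch B alone. Its ligand gene Apln did not pass (1.25 and 0.75). The adhesion molecule Vcam1 turned from -0.28 to 1.05, Vwf, which tethers platelets, went from 0.89 to 2.52, and the selectin genes Sele (5.61 and 7.08) and Selp (5.94 and 7.66) were not called. In all, 7 of 12 endothelial activation genes were called higher and none lower, but 3 in batch B alone and 4 with LF3, PF1 and PM1 added.

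Acta2, smooth muscle actin, stood at -0.72 to 1.01 at 24 h (median -0.19) and at 1.08 to 3.26 at 72 h (median 1.83), without overlap. It led the list of pericyte and smooth muscle genes, of which 8 of 11 were called higher and none lower, with a change of 2.13 ± 0.19 (adjusted p = 7.45e-11). Rgs5, a pericyte gene, turned from -0.53 to 0.47. Of 14 collagen and fibroblast genes 10 were called higher: Sparc, a collagen-binding protein, went from 0.31 ± 0.06 to 1.68 ± 0.06, Fn1, fibronectin, from 1.10 to 2.49, and the fibrillar collagen gene Col1a1 from -0.67 to 1.71. Of 10 metalloproteinase and inhibitor genes 6 were called higher, among them the gelatinase gene Mmp2 (-0.26 to 1.73), and Adamts1 was called lower (3.18 to 2.39). The receptor gene Tgfbr2 (0.45 to 1.81) and the ligand gene Tgfb1 (1.33 to 2.45) grew without overlap, while Inhba, the activin A subunit, fell from 2.13 to 0.75. Of 12 genes of the TGF-beta and activin pathway 7 were called higher and 3 lower, and within batch B 4 and 1.

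Of 10 meningeal genes 8 were called lower on the injured side at 24 h and at 72 h. Between the times 8 were called higher, all 8 of them still on the low side, and 1 lower, Crabp2 (1.92 to 0.51), which carries retinoic acid. The median went from -3.06 to -1.24. Slc22a8, an organic anion transporter of meninges and barrier cells, stood at -5.44 to -2.29 at 24 h (median -3.11) and at -1.65 to -0.62 at 72 h (median -1.01). The groups did not overlap, and the injured-side medians were 1.82 and 10.4 CPM against 19.2 and 21.5 CPM. How much of the meninges each punch held was not tested. Dcn and Lum, which fibroblasts of the meninges also express, were on the high side at both times, at 1.51 and 2.23 at 72 h. Other genes with a low side difference that faded were Crybb1 (-2.19 to 0.11) and the lipid transporter Abca9 (-1.86 to 0.11).

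**Figure D3:**
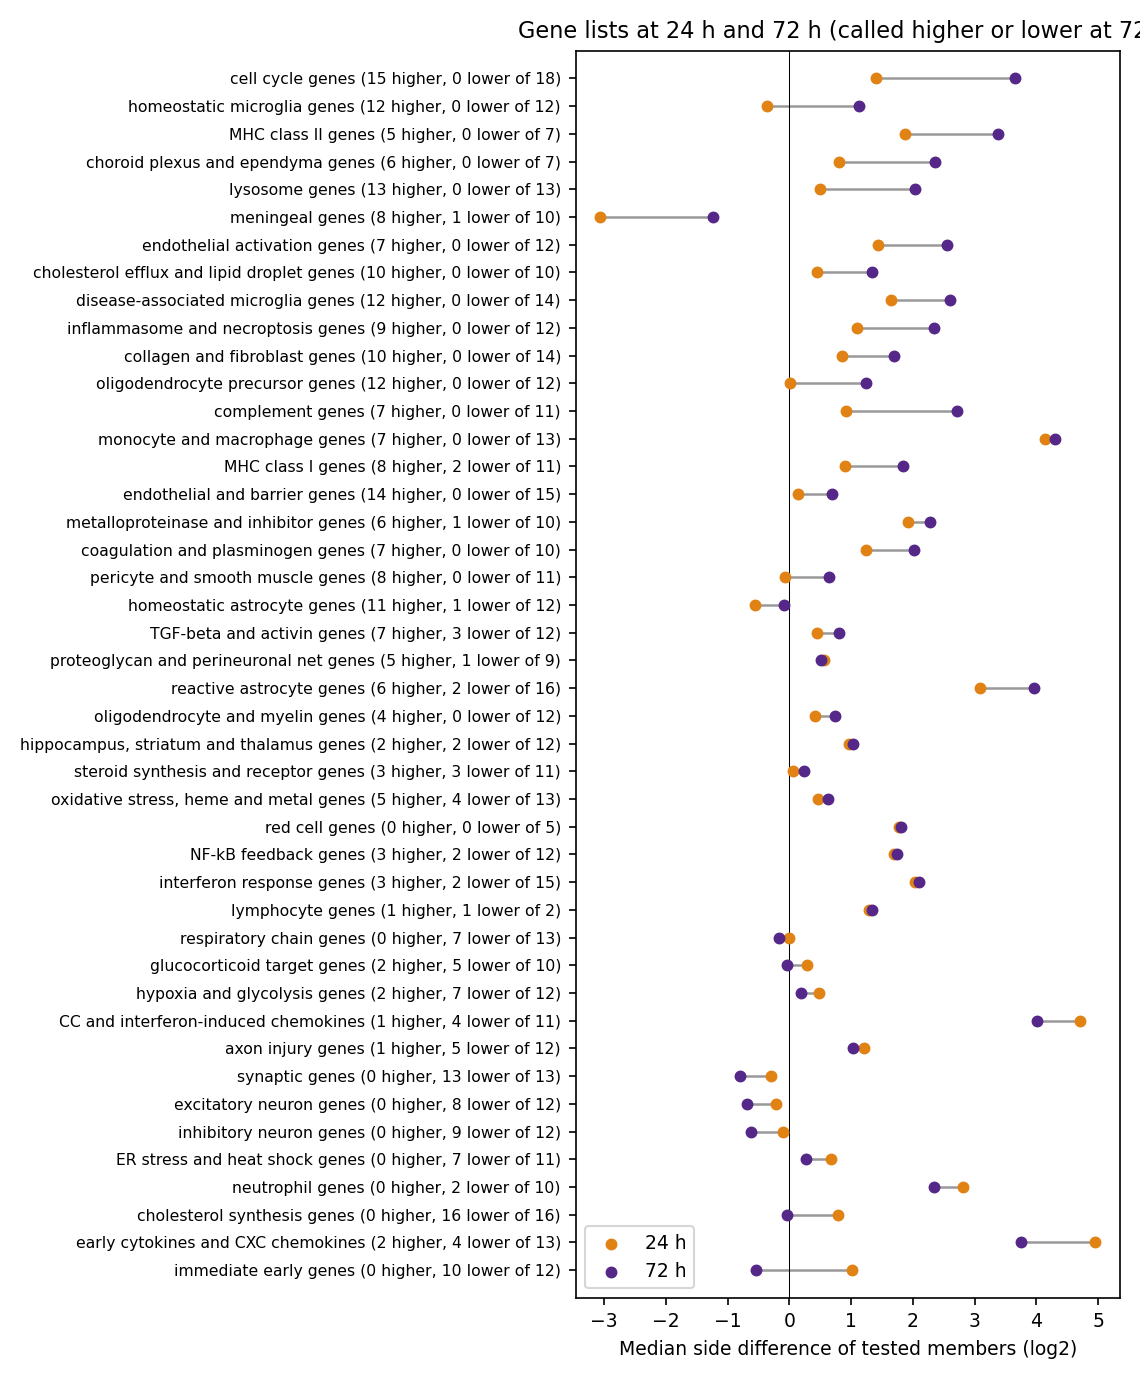
Each row is 1 of 44 gene lists, and the 2 points give the median log2 side difference of its tested members at 24 h and at 72 h; the row labels give how many members were called higher or lower at 72 h. Cell cycle genes moved from 1.40 to 3.66 and immediate early genes from 1.01 to -0.54.

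Of 13 early cytokine and CXC chemokine genes all 13 were high on the injured side at both times. Between the times 4 were called lower (23.7% of all genes were) and 2 higher, and the median side difference went from 4.95 to 3.75. Il11, a cytokine of the interleukin-6 family, stood at 3.11 to 5.53 at 24 h (median 4.25) and at 0.89 to 3.86 at 72 h (median 2.72). The lower part of the 24 h range overlapped the upper part of the 72 h range. The change was -1.90 ± 0.34 (adjusted p = 2.07e-05). Il1b, interleukin-1 beta, went from 4.56 ± 0.26 to 3.05 ± 0.30. Its change was not called with batch-by-side terms (-2.21, adjusted p = 0.0548), in females alone (-1.81, adjusted p = 0.0514) or in males alone (-1.10, adjusted p = 0.0788). The neutrophil attractant Cxcl1 went from 5.98 to 4.05 and Lif, another interleukin-6 family cytokine, from 5.02 to 3.75. Il6 (4.95 and 3.53), Tnf (5.50 and 4.33) and Cxcl2 (6.42 and 5.52) did not pass.

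The 2 early cytokine genes that grew were Csf1, the macrophage growth factor (1.33 to 2.01), and Il1a (0.77 to 1.82). Csf1 was not called with batch-by-side terms (0.43, adjusted p = 0.108). Among 11 CC and interferon-induced chemokines 4 were called lower and 1 higher (23.7% and 26.3% of all genes were). Over all animals the list's median change in level from 24 h to 72 h was -0.25 log2 units on the injured side. Contralaterally it was 0.41, and 0.36 within batch B. Ccl24, an eosinophil attractant, was at -0.11 to 5.25 at 24 h (median 2.59) and at -2.32 to 1.88 at 72 h (median -0.61), from an injured-side median of 1.37 CPM to one of 0.12 CPM. Cxcl16, a membrane-bound chemokine, went the other way, from medians of 1.74 to 3.36 without overlap. Ccl2, the main attractant of monocytes, was at 5.67 and 6.69 and not called. In batch B alone 3 of the cytokine genes were called lower and 1 higher, and 2 of the chemokines lower.

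Of 10 neutrophil genes 2 were called lower at 72 h (23.7% of all genes were) and none higher, the median side difference being 2.81 and 2.34. They were the calprotectin subunits S100a8 and S100a9. With batch-by-side terms neither was called (S100a8 -1.83, adjusted p = 0.164, and S100a9 -2.65, adjusted p = 0.0520). In females alone S100a9 changed by -0.74 and was not called (adjusted p = 0.403). S100a8 stood at 3.58 to 6.86 at 24 h (median 5.09) and at 0.85 to 4.30 at 72 h (median 2.55), and the groups overlapped. The change was -2.38 ± 0.51 (adjusted p = 0.000198), and in batch B alone it was -1.84 and not called (adjusted p = 0.166). The receptor Cxcr2 (5.72 and 4.72) and the granule proteins Mmp8 (4.90 and 5.49) and Ltf (2.71 and 1.95) did not pass. Acod1, which makes itaconate in activated macrophages, went from 2.98 to 7.34 at 24 h (median 4.84) to 0.56 to 2.76 at 72 h (median 2.10). The groups did not overlap, but the change of -2.37 ± 0.93 (adjusted p = 0.0331) was not called without LM2 (-2.19, adjusted p = 0.0853), nor without SF3, SM1, TF3, TM1 or TM2 (adjusted p of 0.0501 to 0.0928), nor with batch-by-side terms (-3.94, adjusted p = 0.0634).

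Of 13 monocyte and macrophage genes 7 were called higher at 72 h and none lower, and within batch B 4 were. Ms4a7, a macrophage membrane protein, had the largest change (0.71 ± 0.30 to 3.76 ± 0.27), and Ccr2, the receptor of recruited monocytes, went from 3.21 to 4.23, while Ly6c2 (4.37 and 4.32) and Chil3 (4.14 and 4.38) did not pass. Of 11 class I genes 8 were called higher and 2 lower, within batch B 8 and 1. B2m, the shared light chain of class I molecules, stood at 0.19 to 0.86 at 24 h (median 0.54) and at 1.21 to 2.23 at 72 h (median 1.51), without overlap. Of 7 class II genes 5 were called higher, among them H2-Ab1 (2.26 to 3.89). Copies of these histocompatibility genes are alike, and reads may have been split between them.

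Of 12 inflammasome and necroptosis genes 9 were called higher and none lower, with a median side difference of 1.10 at 24 h and 2.35 at 72 h. Pycard, the adaptor of inflammasomes, was at -0.14 to 1.38 at 24 h (median 0.61) and at 1.57 to 2.76 at 72 h (median 2.28), with no overlap (change 1.77 ± 0.14, adjusted p = 1.02e-11). Gsdmd, the pore-forming gasdermin, went from 0.65 to 2.01 and Mlkl, the executor of necroptosis, from 1.65 to 3.27, whereas the sensor Nlrp3 (2.33 and 2.31) did not pass. Interferon response genes changed in few cases: 3 of 15 were called higher and 2 lower (26.3% and 23.7% of all genes were). The medians were 2.03 and 2.10. Rsad2, an antiviral enzyme, was called lower (3.45 to 2.10) and Bst2, which tethers virions, higher (1.83 to 3.08). In batch B alone 4 inflammasome genes were called higher, Rsad2 was at -0.46 and not called (adjusted p = 0.622), and the interferon list had 3 genes higher and none lower. That list had 1 gene in each direction without SF1, SF2 and SF3, and 1 lower with LF3, PF1 and PM1 added or under library-size scaling.

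**Figure D4:**
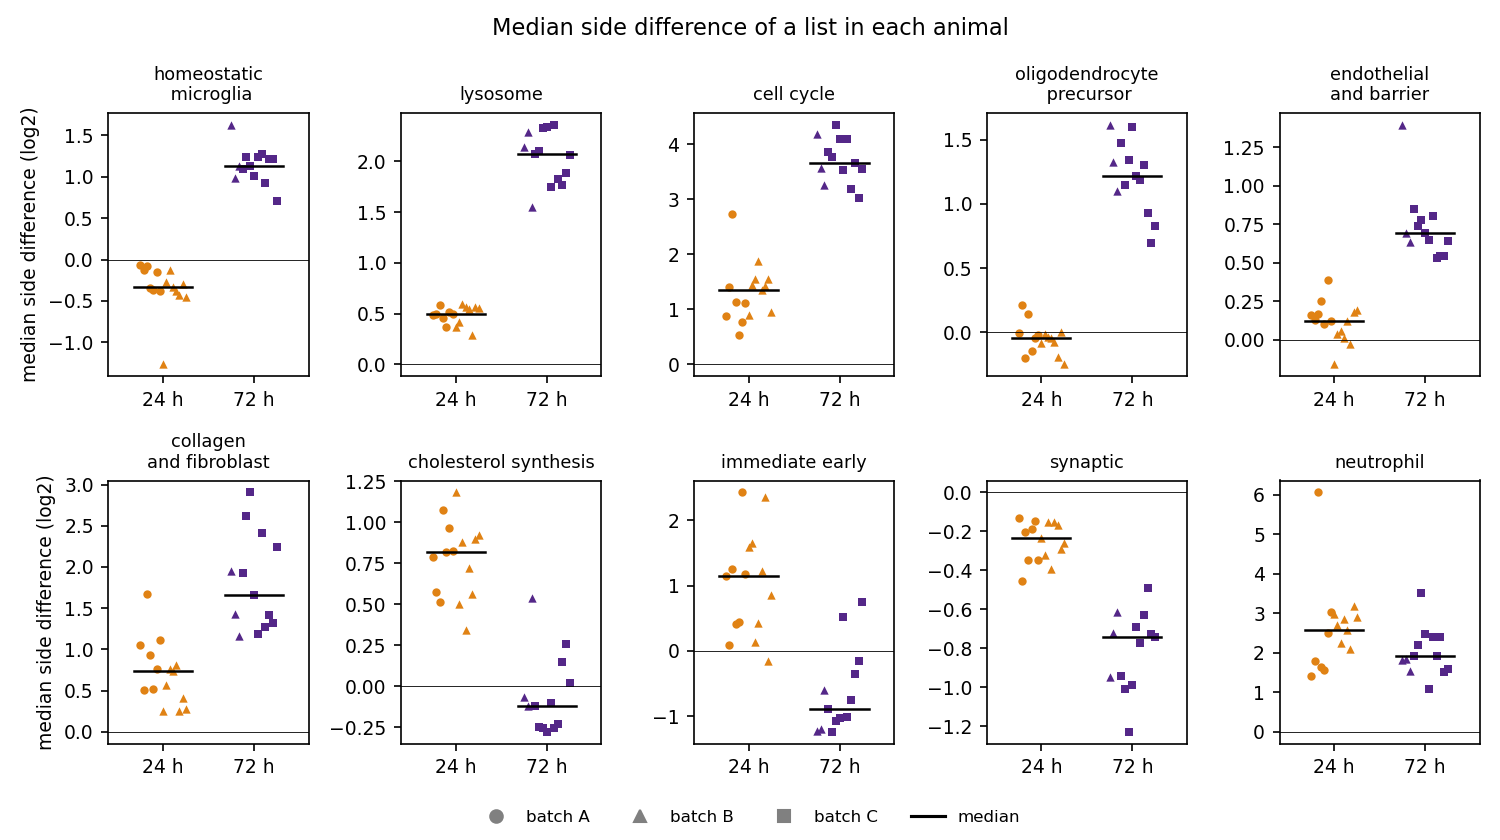
Each panel shows 1 gene list, with 1 point per animal for the median log2 side difference of its tested members, shaped by batch letter, and a bar for the median of the animals. Homeostatic microglia genes ran from -1.26 to -0.06 at 24 h and from 0.71 to 1.63 at 72 h, while neutrophil genes overlapped (1.42 to 6.06 and 1.08 to 3.51). The -1.26 was that of QF1, and the next lowest 24 h value was -0.45.

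Activity-dependent genes had the largest median fall of the 44 lists (-1.62). Of 12 immediate early genes 10 were called lower at 72 h (23.7% of all genes were) and none higher, with a median side difference of 1.01 at 24 h and -0.54 at 72 h. Fosb, a transcription factor of the AP-1 family, stood at -0.67 to 4.52 at 24 h (median 2.89) and at -1.94 to 2.29 at 72 h (median -0.51). Of the 15 animals at 24 h 13 had a positive value and of the 13 at 72 h 4 did, and the ranges overlapped. Its injured-side median was 132 CPM at 24 h and 7.88 CPM at 72 h, against 16.1 and 14.9 CPM contralaterally (change -2.91 ± 0.47, adjusted p = 4.92e-06). Nptx2, a secreted pentraxin that clusters glutamate receptors, went from a median of 2.80 (0.21 to 3.87) to -0.53 (-1.12 to 1.78), and Fos from 2.35 to 0.59.

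Some of these genes ended below the contralateral side. Bdnf, the brain-derived growth factor, turned from 1.04 ± 0.16 to -1.03 ± 0.18, Egr2 from 0.99 to -1.02 and Arc, which acts at synapses, from 0.79 to -0.80. Egr1 was near the contralateral level at 24 h (-0.93 to 1.62, median 0.13) and below it in every 72 h animal (-2.33 to -0.57, median -1.51). Npas4 (-0.25 and -1.56) and Ier2 (1.09 and 0.73) did not pass. Batch B alone gave 9 of 12 lower, with a median change of -2.18. Many activity-dependent promoters hold a cAMP response element, so the windows were searched on both strands for TGACGTCA and for its core TGACG, which the longer motif contains. Of 8 immediate early genes with a window 8 held the core, against 33% of the tested genes with a window and 23% of all genes with one. The whole element was held by 1, against 3.3% and 2.03%. A gene with several windows was counted if any of them matched. The window of Fosb (chr7:19309996-19310295, minus strand) is shown because Fosb changed most in the list, with the core in capitals.

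Fosb: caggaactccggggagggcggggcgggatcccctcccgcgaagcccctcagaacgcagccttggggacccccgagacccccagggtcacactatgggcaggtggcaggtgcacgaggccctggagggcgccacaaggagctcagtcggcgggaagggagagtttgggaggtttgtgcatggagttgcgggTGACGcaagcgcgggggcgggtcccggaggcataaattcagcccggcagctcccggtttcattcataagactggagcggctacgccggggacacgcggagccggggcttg

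Synaptic transcripts fell further between the times. All 13 synaptic genes were called lower at 72 h (23.7% of all genes were), from a median side difference of -0.29 to one of -0.80. Of the 13, 3 did not overlap between the times (1.14% of all genes, lower at 72 h). Snap25, a protein of the vesicle fusion machinery, stood at -0.39 to 0.10 at 24 h (median -0.10) and at -1.43 to -0.45 at 72 h (median -0.98). The groups did not overlap, and the injured-side median was 2333 CPM at 24 h and 1395 CPM at 72 h, against 2476 and 2632 CPM (change -0.85 ± 0.08, adjusted p = 3.60e-10). Homer1, a scaffold of the postsynaptic density whose short form is activity-dependent, went from a median of 0.38 (-0.72 to 0.87) to -1.57 (-1.77 to -0.99). Of 12 excitatory neuron genes 8 and of 12 inhibitory neuron genes 9 were called lower and none higher. Fezf2, a factor of deep-layer projection neurons, went from 0.03 to -0.91 and Gad1, which makes GABA, from 0.15 to -0.78, while Rorb (-0.80 and -0.75) and Npy (0.11 and -0.09) did not pass. In batch B alone 10 synaptic, 6 excitatory and 4 inhibitory neuron genes were called lower.

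Of 12 axon injury genes 10 were called higher on the injured side at 24 h and 9 at 72 h, with 1 and 3 lower. The time change of 5 was called lower and of 1 higher (23.7% and 26.3% of all genes were), the latter not in batch B alone. Over all animals the list's median change in level from 24 h to 72 h was -0.09 log2 units on the injured side. Contralaterally it was 0.15, and 0.19 within batch B. Atf3 (5.94 and 5.48) and Sprr1a (8.36 and 7.80), which injured neurons switch on, did not pass. Gadd45a, a stress-induced gene, went from 2.12 to 1.00, Stmn4, a neuronal microtubule regulator, turned from 0.12 to -0.60 without overlap, and Ecel1, an endopeptidase of injured neurons, went from 3.04 to 4.27.

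**Figure D5:**
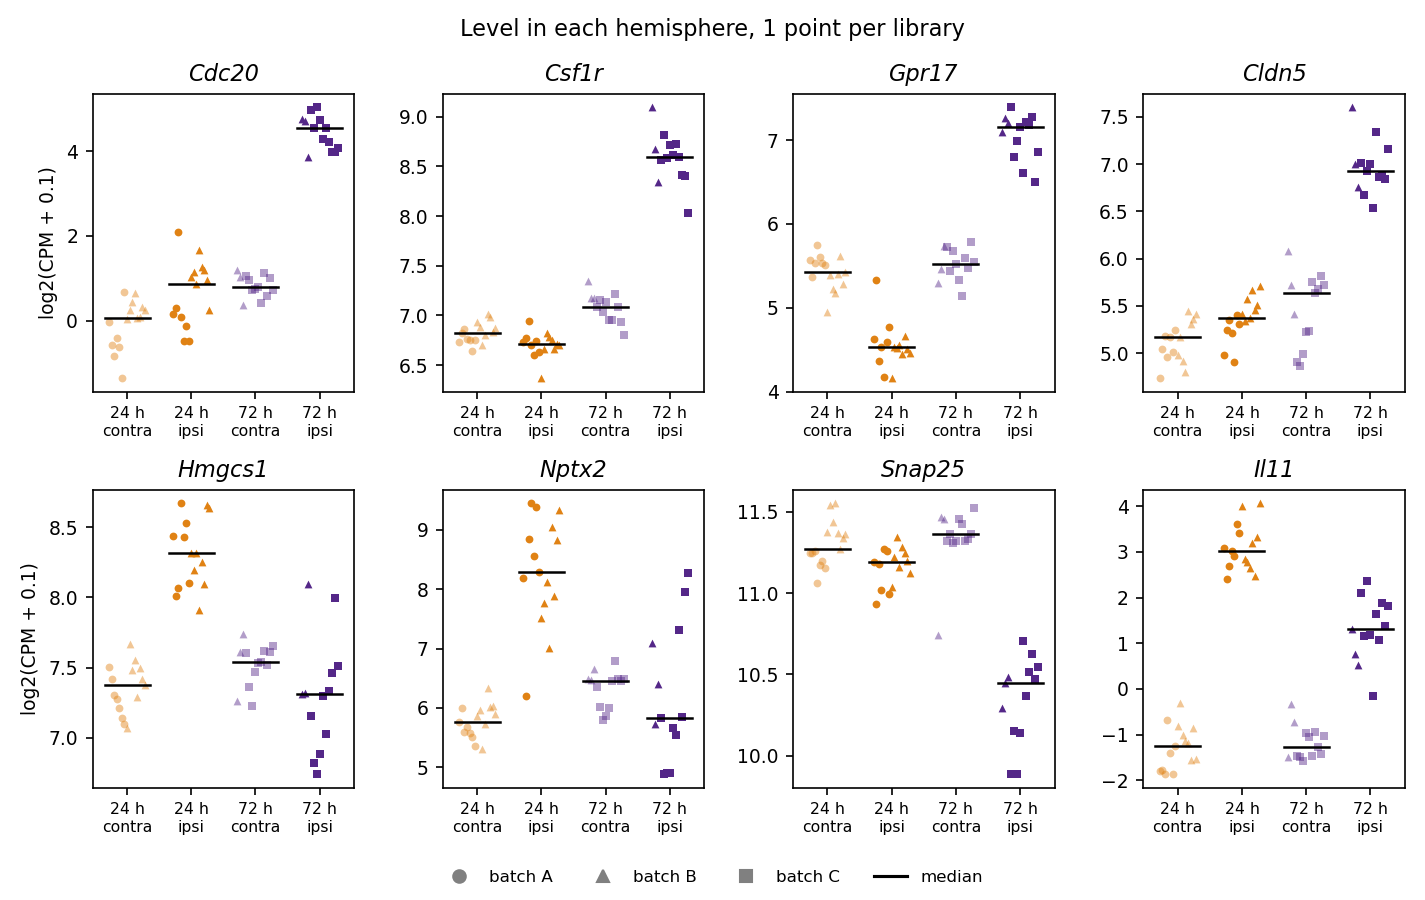
Each panel shows 1 gene, with the level of each library as log2(CPM + 0.1) on the vertical axis by time and hemisphere, points shaped by batch letter and bars for medians. For Cdc20 and Gpr17 the median of the 72 h ipsilateral libraries lies above those of the other 3 groups, and for Snap25 it lies below them. Before rescaling by TMM, Snap25 was at 1653 CPM in the contralateral library of LM2 at 72 h. The ipsilateral library of SM2 at 72 h held 1749 CPM.

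The endoplasmic reticulum stress and heat shock list held 11 genes, of which 7 were called lower and none higher. Atf4, the central factor of the integrated stress response, was at 0.27 to 1.13 at 24 h (median 0.73) and at -0.15 to 0.25 at 72 h (median 0.04), just without overlap (change -0.61 ± 0.07, adjusted p = 4.87e-09). Of 12 hypoxia and glycolysis genes 7 were called lower and 2 higher, and within batch B 3 and 1. Vegfa, the vascular growth factor, turned from 0.34 to -0.55, while Hk2, a hexokinase, went from 1.87 to 2.76 and Car9, a carbonic anhydrase, from 1.58 to 3.04. Among 13 genes of oxidative stress, heme and metals 5 were called higher and 4 lower (26.3% and 23.7% of all genes were), within batch B 3 and 1. The lower calls were 2 with LF3, PF1 and PM1 added, without SF1, SF2 and SF3, and under library-size scaling. Hmox1, which degrades heme, went from 5.17 ± 0.15 to 6.52 ± 0.17 (0.71 and not called in batch B alone, adjusted p = 0.0904), and Ftl1, the ferritin light chain, from medians of 1.27 (0.70 to 1.71) to 2.90 (2.00 to 3.57). Mt2, a metallothionein, fell from 2.65 to 1.29. Respiratory chain genes had small changes, with 7 of 13 called lower and changes of -0.25 to -0.07 in the list. Over all animals the list's median change in level from 24 h to 72 h was -0.03 log2 units on the injured side. Contralaterally it was 0.12, and 0.23 within batch B. Of the 13, 0 were called in batch B alone, 2 with LF3, PF1 and PM1 added, and 1 under library-size scaling.

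Of 10 glucocorticoid target genes 5 were called lower and 2 higher at 72 h (23.7% and 26.3% of all genes were). The higher calls were 0 within batch B and 1 with LF3, PF1 and PM1 added. Cdkn1a, the cell cycle inhibitor p21, went from 1.76 to 3.36 at 24 h (median 2.67) to 0.44 to 2.04 at 72 h (median 1.39). Klf9 turned from 0.29 to -0.52, while Sgk1, a kinase, grew from 0.28 to 0.88. Among 11 genes of steroid synthesis and steroid receptors 3 were called in each direction (26.3% of all genes were called higher and 23.7% lower). Within batch B 1 was called higher and 2 lower. Tspo, an outer mitochondrial membrane protein used as a marker of neuroinflammation, was at 0.89 to 2.56 at 24 h (median 1.62) and at 2.79 to 4.06 at 72 h (median 3.44), without overlap. The progesterone receptor gene Pgr (-0.52 to -0.81) fell further, and the estrogen receptor genes Esr1 (0.40 and 0.82) and Esr2 (0.58 and 1.01) did not pass.

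Marker transcripts of blood and of neighbouring tissue were measured in the same libraries. Of 5 red cell genes none was called in either direction; Hba-a1, alpha globin, was at 0.73 to 4.11 at 24 h (median 1.53) and at -0.12 to 3.43 at 72 h (median 1.79). Of 12 genes that mark hippocampus, striatum or thalamus 2 were called higher and 2 lower (26.3% and 23.7% of all genes were). The higher ones were Prkcd (0.94 to 1.92) and Tcf7l2 (0.00 to 0.65), and the lower ones Drd1 (0.74 to 0.14) and Ppp1r1b (1.38 to 0.44). In batch B alone the list had 1 called in each direction, with Prkcd (0.87, adjusted p = 0.0860) and Tcf7l2 (0.39, adjusted p = 0.366) not called, and Ppp1r1b was not called with batch-by-side terms (adjusted p = 0.0916). Of 7 choroid plexus and ependyma genes 6 were called higher, and 2 within batch B. Ttr, transthyretin, which choroid plexus secretes, had side differences of 9.77 to 10.63 in SF1, SF2 and SF3, where the ipsilateral libraries held 602 to 730 CPM, and of -0.15 to 4.80 in the other 10 animals at 72 h. Without these 3 females, an alternative chosen after seeing the data, 2 of the 7 choroid genes were called and Ttr changed by 1.31 (adjusted p = 0.108). How far the depth or position of the punch moved with these levels was not tested.

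The lists not yet described moved less uniformly. Of 12 genes of NF-kB feedback 3 were called higher and 2 lower (26.3% and 23.7% of all genes were). Among them were Nfkb1 (0.43 to 0.93), a subunit of the factor, and Relb (1.58 to 0.80), another subunit. Within batch B the list had 1 call in each direction, and Relb was not called (-0.77, adjusted p = 0.116). Of 9 proteoglycan and perineuronal net genes 5 were called higher and 1 lower, within batch B 3 and 1. Vcan, the proteoglycan versican, went from medians of 0.24 (-0.91 to 0.55) to 1.58 (1.15 to 3.12) without overlap, and Hapln4, a link protein of perineuronal nets, turned from 0.55 to -0.23. Of 10 coagulation and plasminogen genes 7 were called higher and none lower, and within batch B 4 were higher and 1 lower. Serpine2, an inhibitor of thrombin, turned from -0.34 to 0.41. Only 2 of 11 lymphocyte genes had enough counts to test: the T cell coreceptor gene Cd4 was called lower (1.40 to -0.05) and the B cell gene Cd79b higher (1.18 to 2.72), and neither was called in batch B alone, nor Cd79b with LF3, PF1 and PM1 added (adjusted p = 0.0513). In all, 509 of the 530 genes on the lists were tested.

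Several genes with large changes belong to no list. Slc6a5, a glycine transporter, stood at -0.70 to 2.57 at 24 h (median 1.27) and at 3.64 to 8.41 at 72 h (median 5.14), from an injured-side median of 0.19 CPM to one of 5.21 CPM. The groups did not overlap, but in batch B alone the change of 4.75 was not called (adjusted p = 0.0839). Dmkn, a secreted protein of epithelia, faded from 4.52 to 1.57. Igfn1 went from -0.14 to -2.17, 1700016P03Rik from 0.50 to -1.88 and Gm15721 from -0.96 to -2.58, all towards the low side. Hmcn1, an extracellular matrix protein, went from -1.91 to 0.13. Slc40a1, the iron exporter ferroportin, turned from -0.92 to 1.10 and had per-animal ranges of -1.41 to 0.01 (median -0.95) and 0.67 to 1.50 (median 1.11), without overlap. Frem2 turned from -0.94 to 1.09, Mlph from -1.22 to 1.07 and Serpinb6b from -0.90 to 1.50, while Gpr3, a receptor that raises cAMP, turned from 1.11 to -0.94. The counts carry no stated strand, so overlapping and antisense transcripts may share reads with a neighbour. Whether this applies to Gm15721 was not tested.

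The time change was also compared between females and males. It differed for 1 of 18033 genes (0.00555%), with 935 at an unadjusted p under 0.05. That gene was Tph1, which makes serotonin in the pineal gland, with a change of 7.55 in females and -0.55 in males and a difference of 8.10 ± 1.28 (adjusted p = 0.00992). It rests on 2 females: the ipsilateral library of SF3 held 172 CPM and that of SF2 68.6 CPM, against at most 2.40 CPM in the other 72 h animals. DESeq2's Wald test called 0 genes for the sex difference, and 0 were called without SF1, SF2 and SF3.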

How the data were processed

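Polyadenylated RNA of paired cortical punches was sequenced. The authors deposited raw read counts per gene, and the submitters' processing notes name HISAT2 2.0.5 and mm10. Which program counted the reads, with which annotation and strand setting: not given in the sources used here. Of 54532 genes, 54409 matched a symbol, and the other 123 held 0.0615% of counts. Depth per library is given with the libraries above, and p-values measure the spread between these animals.

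Counts were fitted with edgeR 4.0.16 (R 4.3.3): low-count filter, TMM scaling, a term for each animal and 1 ipsilateral term per time, quasi-likelihood F test, two-sided, Benjamini-Hochberg adjustment over 18033 genes, threshold 0.05. The animal block follows the labels, which name the animal of both libraries. Deviations of the 2 libraries from their group means correlated at 0.04 to 0.44 over 28 animals (median 0.26). Deviations from the means of group and batch, which leave out a shared batch level, correlated at 0.007 to 0.40 (median 0.18). A gene was said to turn if called at both times with opposite signs, to grow if its side difference was larger at 72 h and called then, and to fade if larger at 24 h and called then. Naive animals and the sex difference had their own fits. Counts of the 18033 genes were also simulated, with planted changes of 1.5-fold in 67 genes, 2-fold in 67 and 4-fold in 66. All planted genes had a mean level of at least 1 log2 CPM. Every gene had the same dispersion, and no side difference varied by batch. Of the planted changes 58.2%, 97.0% and 100% were recovered, and 6.59% of calls were false. Recovery at lower levels, with as many changed genes as in the data, or with batch-dependent side differences was not simulated.

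Members and lists were chosen with earlier results of these data known. Named genes were, among called genes whose mean level reached 1 log2 CPM, the 6 largest changes of each grown or faded class and the 8 turned genes with the largest smaller side difference; in each list the 3 members of smallest p; genes called for sex; and Gfap, Cldn5 and Aqp4. Other list members named in the text were chosen after their values were seen. Alternatives used limma 3.58.1, DESeq2 1.42.0, other scalings, filters, animals and batch terms. LF3, PF1 and PM1 were left out for the reasons given with the libraries. Promoter windows are RefSeq's on GRCm38.p6, and genes of the lists without a window were not searched. Some genes of these lists are counted but not reported by name here.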

Additional observations from a re-analysis of the deposited data

Results flagged for a closer look

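The comparison of the side difference between the times itself differed for 9012 of 18033 genes, which is the result described above. The time change of Tph1 differed between females and males by 8.10 log2 units, and the ipsilateral libraries of SF2 and SF3 carry it. Ttr was also high in the ipsilateral libraries of SF1, SF2 and SF3.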

How the results depend on the processing

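In none of the alternatives was a gene called in the direction opposite to its call among the 9012. Within batch B alone (8 animals at 24 h, 3 at 72 h) 2335 genes were higher and 1485 lower, with 1738 and 1016 grown on the high and low side, 311 and 339 faded, 297 turned and 3460 lower on the injured side at 72 h. With batch-by-side terms, where the time contrast rests on the same batch B animals, these were 2817, 1873, 2064, 1338, 354, 417, 364 and 3942. Females alone gave 489 and 487 faded genes and 557 turned, and males alone gave 2559 lower, 1753 grown on the low side and 421 turned. These fits hold fewer animals or more terms. The sex difference was called for 0 genes by DESeq2's Wald test and for 0 without SF1, SF2 and SF3. The time change of Sdha changed sign, to 0.027 in batch B alone and to 0.030 with batch-by-side terms, and Tph1 to -0.41 in males alone; the cause was not tested. Without the animal block 8815 genes were called, and Acod1, Arg1 and Cd79b lost their call.

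Leaving out 1 animal at a time gave 4508 to 4803 genes higher and 4017 to 4486 lower, 3213 to 3461 and 2725 to 3108 grown, 801 to 907 and 679 to 783 faded and 904 to 1066 turned. Of the 149 named genes called, 145 were called in every fit without 1 animal in which they could be tested. The exceptions were Ifit2, Cd79b, Acod1 and Tph1. Ccl24 was among the 145, but it was tested, and called, in only 17 of these 28 fits. In batch B alone 148 of the 149 had the same sign and 131 were called. Genes at a few counts per library, such as those of lymphocytes, are limited by depth.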
